A study of Mus musculus with 6 samples.

Results

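The lysosome is the acidic organelle in which cells break down material taken up from outside and worn-out parts of their own. The V-ATPase, a rotary proton pump with a sector in the membrane (V0) and a sector in the cytosol (V1) that splits ATP, makes its lumen acidic. Soluble hydrolases then cut sugars, lipids and proteins, while heavily glycosylated membrane proteins line and protect the limiting membrane. Phagocytes are rich in lysosomes, and many lysosomal genes carry a short DNA element, called CLEAR, that is bound by the transcription factor TFEB and its relatives. The genes described here are 40 genes of this machinery, chosen by name: 17 genes of the proton pump and its accessory proteins, 6 of membrane proteins, and 17 of soluble hydrolases and their activators, with the cathepsins left out. They were chosen with earlier results of these data known. The shares of all tested genes set beside theirs below are therefore a description and not an independent test. All 40 were among the 23060 row names of the deposited table, and all 40 were among the 10361 genes tested, the level required being a library mean of 1 FPKM or more (fragments scaled for the length of the transcript and for the mapped total of the library).

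Total RNA came from cells that the labels call HL-1, an atrial muscle cell line of the mouse, with genotype WT in the labels, grown in Claycomb medium with serum, norepinephrine and glutamine. The 3 control libraries were set against 3 tachypaced libraries, that is, cells under rapid electrical stimulation, to ask which transcripts change after pacing. Both groups shared the medium and the genotype. The labels give neither the rate nor the duration of pacing and do not tell whether each replicate was a culture of its own. The p-values therefore rest on the spread among these libraries alone, which could be technical.

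FPKM summed to between 411050 and 416820 in control libraries and between 419557 and 432244 in tachypaced libraries, ranges that did not overlap. Read depth is unknown because FPKM carries no counts. Most defining cardiomyocyte transcripts were at or near 0: 6 of 12 markers, among them Myh6, Actc1 and Nkx2-5, were listed at 0 in every library. The 12 summed to between 3.04 and 4.02 FPKM in control and between 3.73 and 3.84 FPKM under tachypacing. Tnni3 was the exception and made up most of this sum, at 2.78 to 3.57 FPKM in control and 3.51 to 3.64 FPKM under tachypacing. Most of the 10 macrophage markers were abundant in the same libraries. Adgre1 and Itgam, with means of 6.67 and 7.65 FPKM, lay below the median tested gene at 10.7 FPKM. Fcgr3, with a mean of 0.763 FPKM, was too low to be tested. The label HL-1 is thus not borne out by the cardiomyocyte and macrophage transcripts. Cd68 is also counted among the other lysosome genes below. The 10 macrophage markers summed to between 1283 and 1451 FPKM in control and between 1606 and 1782 FPKM under tachypacing. Of the 9 macrophage markers that could be tested, 3 rose (Lyz2, Cd14 and Fcer1g), or 33.3%, and 0 fell, against 2.30% and 3.22% of all tested genes. The difference was positive in 8 of the 9 and was -0.008 (log2) in Csf1r. Part of the macrophage signal thus moved in the same direction as most of the lysosomal genes. Its part in the results below was not tested. Markers of fibroblasts summed to at most 0.144 FPKM and those of endothelium to at most 1.93 FPKM in any library. These are bulk samples, in which fewer cells of a type and less RNA per cell cannot be told apart.

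In tachypaced libraries 4 of the 40 lysosomal genes rose and 0 fell. They were Tcirg1 and Atp6v0c of the pump's membrane sector, Atp6v1g1 of its cytosolic sector and the membrane protein gene Laptm4a, each higher by 1.24-fold to 1.30-fold on the log2(FPKM + 1) scale. The 4 genes are 10.0% of the members, against 2.30% of all tested genes called higher, and 0 of 40 were called lower, against 3.22% of all tested genes (limma with a variance trend, p adjusted by Benjamini-Hochberg over all tested genes, threshold 0.05). At an unadjusted p below 0.05, 24 members were higher (60.0%, against 10.8% of all tested genes) and 1 was lower (2.50%, against 19.4%). The difference was positive in 35 of the 40, as in 41.1% of all tested genes, and in 33 to 37 of them under the other scalings and left-out libraries. The median over the members was 0.15 on the log2(FPKM + 1) scale, against -0.04 over all tested genes. After rescaling to a common total these medians were 0.11 and -0.07. With median of ratios scaling they were 0.18 and -0.01, and with quantile normalization 0.14 and -0.005.

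**Figure D1:**
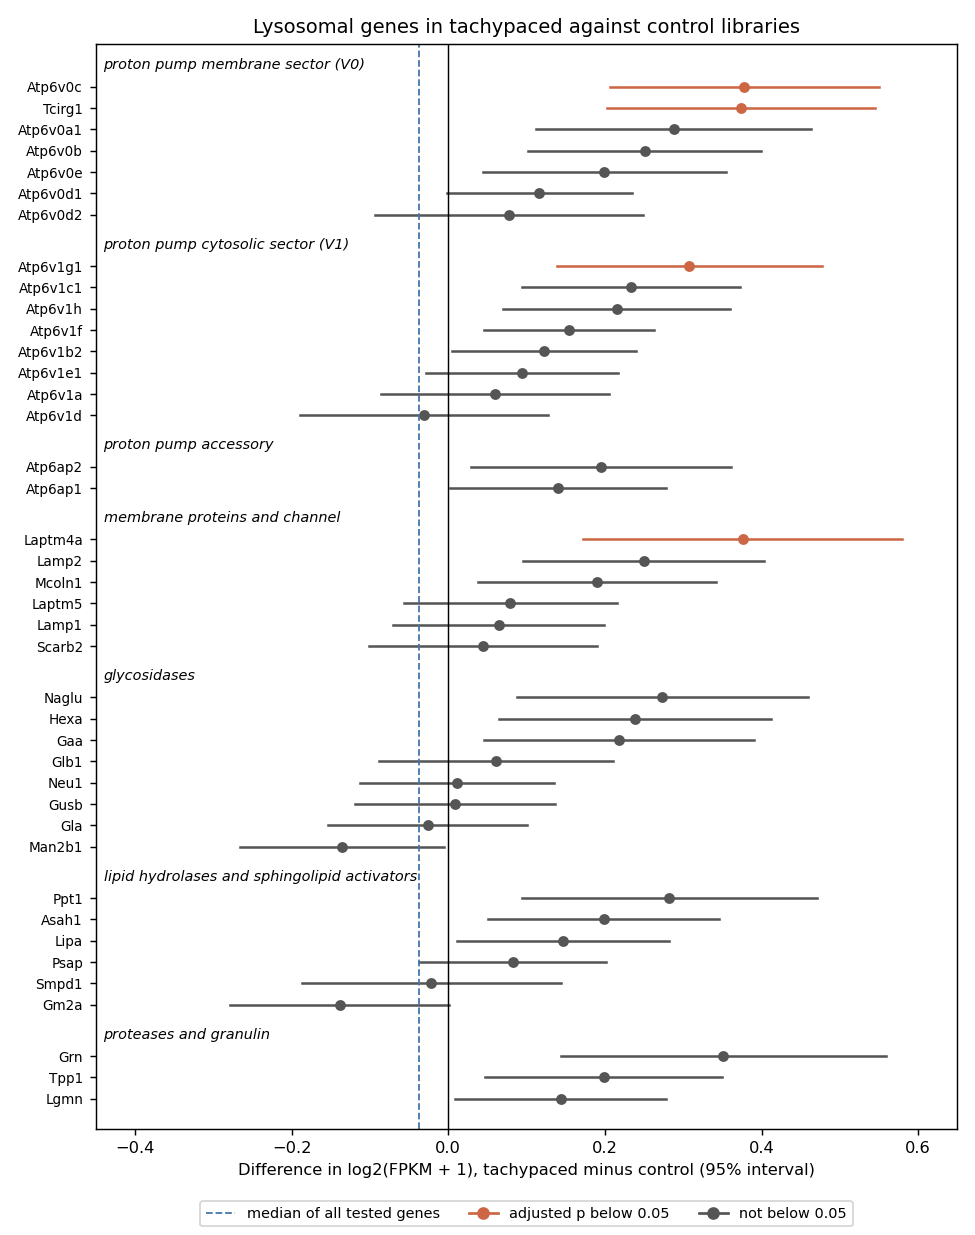
Difference in log2(FPKM + 1) between 3 tachypaced and 3 control libraries for each of the 40 genes, grouped by role, with its 95% interval. The 4 genes called higher are in orange, and the dashed line is the median of all tested genes at -0.04.

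These calls depended on which libraries entered the fit. Control replicate 1 lay toward the tachypaced libraries: over the 40 genes it averaged 0.10 above the control mean on the log2(FPKM + 1) scale, against -0.03 and -0.07 for control replicates 2 and 3 and 0.13 to 0.17 for the tachypaced libraries. Without control replicate 1, 24 of 40 members were called higher and 0 lower, against 11.2% and 18.8% of all tested genes. Leaving that library out removes the control nearest to the other group. When any of the other 5 libraries was left out instead, 0 members were called. In those fits only 1 to 12 of the 10361 tested genes were called higher and 0 or 1 lower. Of all tested genes, 238 were higher and 334 lower; this split was 221 and 183 with median of ratios scaling, 13 and 4 with quantile normalization, and 250 and 922 after rescaling to a common total.

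**Figure D2:**
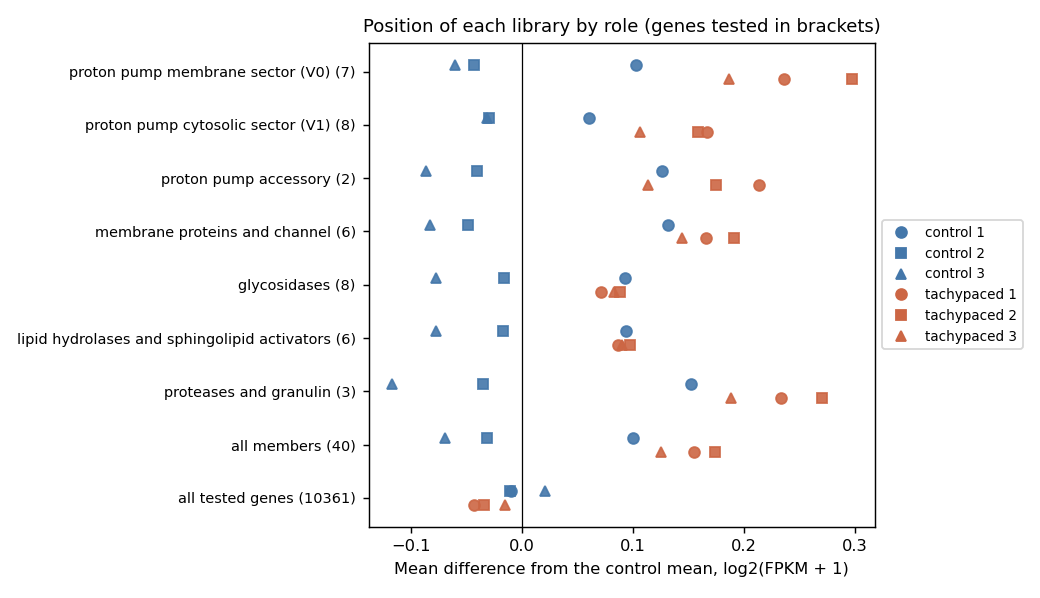
Mean difference of each library from the control mean on the log2(FPKM + 1) scale, by role, for the 3 control (blue) and 3 tachypaced (orange) libraries. Control replicate 1 averaged 0.10 over all members, between the other controls at -0.03 and -0.07 and the tachypaced libraries at 0.13 to 0.17, and lay level with the tachypaced libraries for the glycosidases and lipid hydrolases.

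Most of these genes were abundant. The mean level over the 6 libraries had a median of 119 FPKM over the members, against 10.7 FPKM over all tested genes, and 26 of the 40 ranked among the 1036 most abundant tested genes. FPKM is scaled to transcript length, so levels may be set side by side. The highest were Lamp1 at 578 FPKM, Psap at 558 FPKM and Grn at 489 FPKM, and the lowest were Scarb2 at 14.1 FPKM, Smpd1 at 12.8 FPKM and Atp6v0d2 at 8.88 FPKM. Lamp1 and Psap, the first in this order, overlapped in their values over the libraries, as did Atp6v0b, Lgmn, Atp6v0c and Atp6v1g1, which stood between 287 and 298 FPKM. Grn overlapped with Lamp1 and Psap in tachypaced libraries, at 522 to 584 FPKM, and lay below both in control libraries, at 384 to 497 FPKM. Summed over the 40 genes, the level was 5747 ± 405 FPKM in control and 6524 ± 172 FPKM under tachypacing (SD, n = 3 each), which was 1.30% to 1.51% and 1.51% to 1.55% of all FPKM.

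**Figure D3:**
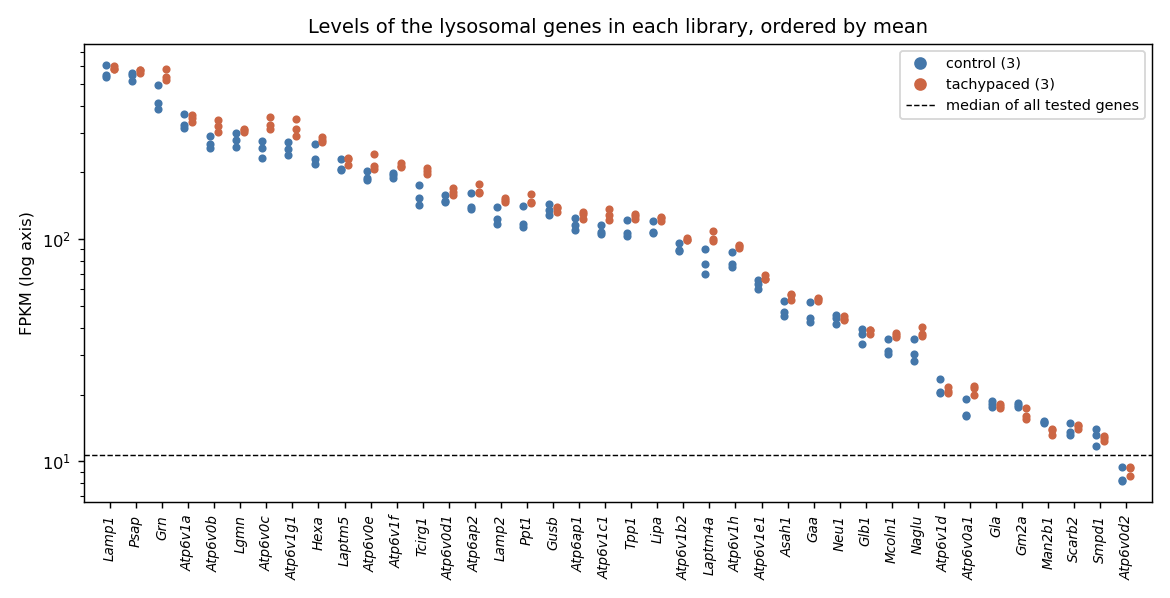
FPKM of each gene in the 3 control (blue) and 3 tachypaced (orange) libraries on a log axis, ordered by the mean over the 6. The genes run from Lamp1 at 578 FPKM to Atp6v0d2 at 8.88 FPKM, and the dashed line is the median of all tested genes at 10.7 FPKM.

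The V0 sector of the pump holds the proton path: a ring of proteolipids that turns against a large fixed a subunit. Of its 7 genes, 2 rose and 0 fell, against 2.30% and 3.22% of all tested genes, with a median difference of 0.25 (log2), and in 6 of 7 every tachypaced library lay above every control library, as in 12.6% of all tested genes. Their summed level was 1054 ± 62.2 FPKM in control and 1274 ± 72.1 FPKM under tachypacing (SD, n = 3 each).

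Atp6v0c encodes the c proteolipid, the main building block of the rotor ring. It stood at 277, 257 and 232 FPKM in control replicates 1 to 3 and at 327, 356 and 312 FPKM in the tachypaced replicates. The highest control lay below the lowest tachypaced library, and the difference was 0.38 on the log2(FPKM + 1) scale (SE 0.08, adjusted p = 0.0435). The gene lies on chromosome 17 from 24163866 to 24169702 (GRCm38, GENCODE M21). GENCODE lists 2 pseudogenes of the same name, Atp6v0c-ps1 and Atp6v0c-ps2, and reads shared with such copies may be divided between them.

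Atp6v0b, which encodes a related proteolipid of the ring, had the highest mean of the sector. It stood at 292, 258 and 267 FPKM in control and at 324, 345 and 305 FPKM under tachypacing. The groups did not overlap, yet the test was not passed (log2 difference 0.25, SE 0.07, adjusted p = 0.0570). GENCODE places an exon of Gm12841 on the opposite strand over this gene, and whether counting used strand is not given in the sources used here. Exons of other genes also lie over Atp6v1e1, Atp6v1h, Grn, Hexa, Lamp1 and Ppt1 on the opposite strand, and over Glb1 on the same strand.

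The a subunit has several isoforms, which direct the pump to different membranes. Tcirg1, also called a3, is the isoform best known from the osteoclast and from lysosomes of macrophages. It stood at 176, 143 and 153 FPKM in control and at 203, 209 and 197 FPKM under tachypacing, a difference of 0.37 (log2, SE 0.08, adjusted p = 0.0435). Control replicate 1 was again the highest control, still below all 3 tachypaced libraries. The gene lies on chromosome 19 from 3896050 to 3907133. Atp6v0a1, the a1 isoform common in neurons, stood much lower, at 19.1, 16.3 and 16.1 FPKM in control and 21.4, 21.9 and 19.9 FPKM under tachypacing. Its groups did not overlap and its adjusted p was 0.0598, for a difference of 0.29 (log2). Tcirg1 made up 86.6% to 87.4% of the summed a subunit FPKM in control libraries, against 88.2% to 88.3% under tachypacing, where the sum also takes in Atp6v0a2 and Atp6v0a4, the latter listed at 0 throughout.

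The d subunit couples the ring to the central stalk. Atp6v0d1, the ubiquitous form, stood at 149, 158 and 147 FPKM in control and 163, 170 and 159 FPKM under tachypacing. The ranges were close but did not overlap, and the test was not passed (log2 difference 0.12, 95% interval -0.002 to 0.23, adjusted p = 0.171). Atp6v0d2, the form known from osteoclasts and macrophages, stood at 9.44, 8.27 and 8.14 FPKM in control and 9.30, 8.63 and 9.47 FPKM under tachypacing. Its groups overlapped, with a 95% interval from -0.09 to 0.25 (log2), and the ubiquitous form made up 94.03% to 95.2% of the d subunit FPKM in the 6 libraries. Atp6v0e, a small membrane subunit, stood at 192 ± 9.90 FPKM in control and 221 ± 18.1 FPKM under tachypacing (SD, n = 3 each, adjusted p = 0.0958).

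**Figure D4:**
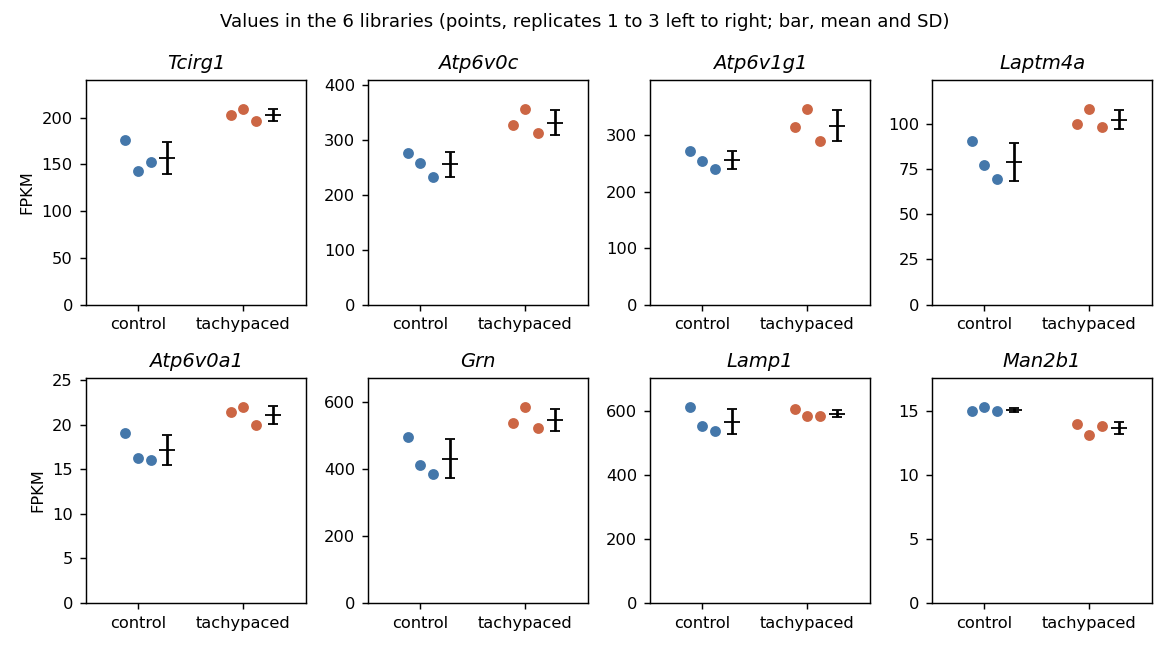
FPKM of 8 of the genes in each library (points, replicates 1 to 3 from left to right) with the mean and SD of each group (bars, n = 3), on axes that start at 0. Tcirg1, Atp6v0c, Atp6v1g1 and Laptm4a passed the test, while Atp6v0a1, Grn and Man2b1 did not although their groups do not overlap, and in Lamp1 control replicate 1 is the highest of the 6 libraries.

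The V1 sector splits ATP in a head of alternating A and B subunits and turns the central stalk, while outer stalks hold the head in place. Of its 8 genes, 1 rose and 0 fell, against 2.30% and 3.22% of all tested genes, with a median difference of 0.14 (log2). In 6 of 8 the groups did not overlap, with tachypaced higher, as in 12.6% of all tested genes. The summed level was 1153 ± 59.8 FPKM in control and 1294 ± 34.5 FPKM under tachypacing (SD, n = 3 each). The gene that rose was Atp6v1g1, whose product G1 forms part of the outer stalks. It stood at 273, 256 and 240 FPKM in control and 315, 347 and 291 FPKM under tachypacing, with no overlap (log2 difference 0.31, SE 0.07, adjusted p = 0.0492). The gene lies on chromosome 4 from 63544772 to 63550750. It made up 99.7% to 99.9% of the G subunit FPKM in the libraries, the other members being Atp6v1g2 and Atp6v1g3.

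The catalytic subunit gene Atp6v1a had the highest mean of the sector. It stood at 366, 328 and 317 FPKM in control and 362, 337 and 353 FPKM under tachypacing, so the highest value was a control. Its difference was 0.06 (log2, 95% interval -0.09 to 0.20, adjusted p = 0.559), and quantile normalization turned it to -0.02. Its partner in the head, Atp6v1b2, stood at 91.6 ± 4.34 and 99.7 ± 1.03 FPKM (SD, n = 3 each, adjusted p = 0.153), and the other B isoform gene, Atp6v1b1, was listed at 0 in all libraries. No test of a subunit against another was run.

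Among the remaining V1 genes, Atp6v1c1, whose C subunit joins the outer stalks to the membrane sector, stood at 110 ± 5.48 and 129 ± 7.70 FPKM (SD, n = 3 each, adjusted p = 0.0573). Atp6v1h, whose H subunit regulates the joining of the sectors, stood at 80.1 ± 6.63 and 92.9 ± 1.36 FPKM (SD, n = 3 each, adjusted p = 0.0715). Atp6v1f, a central stalk gene, stood at 194 ± 5.18 and 216 ± 4.70 FPKM (SD, n = 3 each, adjusted p = 0.0797). In these 3 genes the groups did not overlap. The outer stalk gene Atp6v1e1 stood at 62.9 ± 2.91 and 67.2 ± 1.74 FPKM (SD, n = 3 each), again without overlap, with an adjusted p of 0.267. Atp6v1d, the other central stalk gene and the lowest of the sector, stood at 20.2, 20.6 and 23.6 FPKM in control and 21.7, 20.4 and 20.7 FPKM under tachypacing. It was the single pump gene with a negative difference, -0.03 (log2), which quantile normalization turned to 0.01 and leaving out control replicate 3 to 0.03.

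The accessory proteins guide the assembly and delivery of the pump. Atp6ap2, also known as the prorenin receptor, stood at 162, 139 and 137 FPKM in control and 177, 163 and 161 FPKM under tachypacing. Atp6ap1 stood at 125, 115 and 110 FPKM in control and 129, 133 and 124 FPKM under tachypacing. In both genes control replicate 1 overlapped the tachypaced range while the other controls lay below it, and neither passed the test (adjusted p = 0.117 and 0.159). Without that control both passed (adjusted p = 0.00694 and 0.0231). Over the 17 pump and accessory genes together, 3 rose and 0 fell, against 2.30% and 3.22% of all tested genes. Without control replicate 1 the counts were 12 and 0, against 11.2% and 18.8%.

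Of the 6 membrane protein genes, 1 rose and 0 fell, against 2.30% and 3.22% of all tested genes, with a median difference of 0.13 (log2). Laptm4a, a small transmembrane protein of late endosomes and lysosomes, stood at 90.6, 77.3 and 69.6 FPKM in control and 100.4, 108 and 98.7 FPKM under tachypacing. All 3 tachypaced libraries lay above the controls, and the difference was 0.38 (log2, SE 0.09, adjusted p = 0.0479). The gene lies on chromosome 12 from 8921664 to 8938742. Laptm5, its relative of blood cells, was more abundant and overlapped between the groups, at 214 ± 13.6 and 226 ± 8.94 FPKM (SD, n = 3 each, adjusted p = 0.401). Laptm5 accounted for 68.3% to 71.4% of the summed FPKM of Laptm5, Laptm4a and Laptm4b in control and for 64.4% to 66.7% in tachypaced libraries, ranges that did not overlap.

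Lamp1 and Lamp2 encode the main glycoproteins of the lysosomal membrane, and Lamp2 also serves the uptake of proteins by chaperone-mediated autophagy. Lamp1 stood at 610, 552 and 536 FPKM in control and 604, 584 and 585 FPKM under tachypacing. Its highest value was control replicate 1, and its difference was 0.06 (log2, 95% interval -0.07 to 0.20, adjusted p = 0.495). Lamp2 stood at 140, 123 and 117 FPKM in control and 154, 151 and 147 FPKM under tachypacing. Its groups did not overlap and the test was not passed (log2 difference 0.25, adjusted p = 0.0608). Mcoln1, a lysosomal calcium channel, stood at 32.5 ± 2.80 and 37.1 ± 0.664 FPKM (SD, n = 3 each, adjusted p = 0.102). Scarb2, the receptor that carries glucocerebrosidase to the lysosome, was the lowest of the group, at 14.9, 13.2 and 13.5 FPKM in control and 14.6, 14.4 and 14.0 FPKM under tachypacing, with overlap.

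Of the 8 glycosidase genes, which remove sugars from glycoproteins, glycolipids and glycans, 0 passed in either direction. This is near the 2.30% higher and 3.22% lower of all tested genes. At an unadjusted p below 0.05 (limma), 3 were higher and 1 lower, or 37.5% and 12.5%, against 10.8% and 19.4% of all tested genes. Hexa, a subunit of the enzyme that degrades GM2 ganglioside, was the most abundant, at 270, 229 and 218 FPKM in control and 280, 289 and 274 FPKM under tachypacing. The groups lay apart, with control replicate 1 the nearest control, and the test was not passed (adjusted p = 0.0843). Naglu, which acts on heparan sulphate, had the largest difference of the group at 0.27 (log2), with 31.4 ± 3.61 and 38.1 ± 1.87 FPKM (SD, n = 3 each, adjusted p = 0.0729). Gaa, the enzyme of lysosomal glycogen breakdown, stood at 46.2 ± 5.13 and 53.7 ± 0.991 FPKM (SD, n = 3 each, adjusted p = 0.0986), also without overlap.

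The other glycosidases differed less. Glb1, Gusb and Neu1, which remove galactose, glucuronic acid and sialic acid, had differences of 0.06, 0.01 and 0.01 (log2), with 95% intervals of -0.09 to 0.21, -0.12 to 0.14 and -0.11 to 0.14. Gusb and Neu1 turned negative after rescaling to a common total, at -0.03 each. Gla, the galactosidase lacking in Fabry disease, stood at 18.1 ± 0.552 and 17.8 ± 0.400 FPKM (SD, n = 3 each), with a difference of -0.03 that became 0.002 with median of ratios scaling and 0.03 with quantile normalization. Man2b1, the lysosomal mannosidase, had the lowest level and a difference of the opposite sign: 14.98, 15.27 and 14.96 FPKM in control against 14.0, 13.1 and 13.8 FPKM under tachypacing. All 3 tachypaced values lay below the controls, as in 22.4% of all tested genes, and the test was not passed (log2 difference -0.14, SE 0.06, adjusted p = 0.153).

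The 6 genes of lipid hydrolases and activators also gave 0 calls in either direction, near the 2.30% higher and 3.22% lower of all tested genes. At an unadjusted p below 0.05 (limma), 3 were higher and 0 lower, where all tested genes gave 10.8% and 19.4%. Psap, the precursor of the saposins that lift sphingolipids out of the membrane, stood at 563, 549 and 514 FPKM in control and 563, 581 and 576 FPKM under tachypacing. The groups touched without overlapping (adjusted p = 0.316). Ppt1, which removes fatty acids from proteins, had the largest difference of the group at 0.28 (log2), with 124 ± 14.9 and 150 ± 7.85 FPKM (SD, n = 3 each, adjusted p = 0.0698). Asah1, the acid ceramidase, stood at 48.3 ± 3.80 and 55.5 ± 1.74 FPKM (SD, n = 3 each, adjusted p = 0.0879), also with tachypaced above control throughout. Lipa, which splits cholesteryl esters and triglycerides, overlapped between the groups by control replicate 1 alone, at 121, 107 and 108 FPKM against 126, 124 and 120 FPKM (adjusted p = 0.139).

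Smpd1, the acid sphingomyelinase, had the lowest mean, with 14.0, 13.1 and 11.8 FPKM in control and 12.8, 12.3 and 13.1 FPKM under tachypacing. Its difference of -0.02 (log2) became 0.01 with median of ratios scaling and 0.03 with quantile normalization. Gm2a, the activator that presents GM2 ganglioside to the Hexa product, stood at 17.6, 18.3 and 17.9 FPKM in control and 15.95, 15.5 and 17.3 FPKM under tachypacing. These groups did not overlap, with tachypaced lower, and the test was not passed (log2 difference -0.14, adjusted p = 0.169). Man2b1 and Gm2a were the 2 members in which all tachypaced values lay below all control values, and their differences were negative under every alternative run.

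Of the 3 remaining genes, 0 passed in either direction, near the 2.30% higher and 3.22% lower of all tested genes. At an unadjusted p below 0.05 (limma), 3 were higher and 0 lower, against 10.8% and 19.4% of all tested genes. Grn encodes progranulin, which is cleaved to granulins in the lysosome and is abundant in myeloid cells. It stood at 497, 413 and 384 FPKM in control and 537, 584 and 522 FPKM under tachypacing. The difference of 0.35 (log2, SE 0.09) was among the largest of the 40, and it did not pass (adjusted p = 0.0562). Lgmn, the asparaginyl endopeptidase legumain, stood at 301, 279 and 261 FPKM in control and 311, 313 and 304 FPKM under tachypacing (adjusted p = 0.143). Tpp1, an aminopeptidase whose loss causes a childhood neuronal storage disease, stood at 122, 107 and 103 FPKM in control and 130, 128 and 124 FPKM under tachypacing (adjusted p = 0.0922). In all 3 genes the tachypaced libraries lay above the controls, as in 12.6% of all tested genes, and control replicate 1 was the nearest control.

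Across the 40 genes the groups lay apart with tachypaced higher in 24, or 60.0%, against 12.6% of all tested genes, and with tachypaced lower in 2 of 40, against 22.4%. A further 14 members, or 35.0%, had an adjusted p from 0.05 to 0.1 with tachypaced higher, against 4.69% of all tested genes. All 4 called members kept a positive difference under the 15 alternatives, and they were called in 6 or 7 of these.

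**Figure D5:**
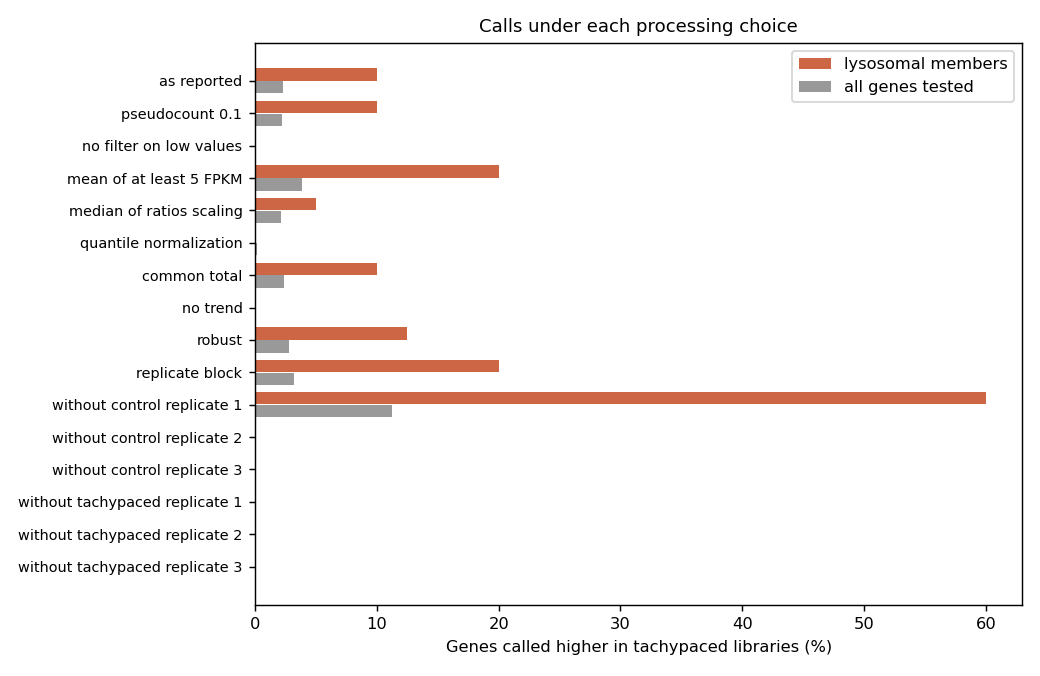
Share of the 40 lysosomal genes (orange) and of all genes tested (grey) that were called higher, in percent, as reported and under each of 15 alternatives; a missing bar is a share of 0 or close to it. The members reach 10.0% as reported and 60.0% without control replicate 1. They reach 0 when any other library is left out, where only 1 to 12 of all 10361 genes tested are called higher.

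Promoters of the members were read from RefSeq (GRCm38.p6, 250 bases before to 50 after each start), which held 34 of the 40 genes. The motif searched was CACGTG, the E-box core of the CLEAR element, which reads the same on both strands, together with its longer forms TCACGTGA and the same with a further G before and C after it, each of which contains the shorter. CACGTG was present for 11 of the 34 members, or 32.4%, against 8.09% of all 27025 genes in the table and 12.5% of the tested genes found there, and in 7.15% of all 32851 windows of this length. TCACGTGA was present for 5 members (Atp6v0d1, Atp6v0e, Atp6v1a, Gla and Mcoln1), or 14.7%, against 1.12% of all genes and 2.42% of the tested genes. The longest form was present for 0 of 34, against 0.370% and 0.897%. The 11 genes were Atp6v0b, Atp6v0d1, Atp6v0e, Atp6v1a, Lamp1, Mcoln1, Gaa, Gla, Glb1, Naglu and Lgmn. Of the 4 called genes 3 were in the table and 0 of these held the motif. A match describes the sequence only.

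The 100 bases before the most upstream RefSeq start are shown for 3 members with the motif, among them Lamp1 with 4 copies. They are also shown for the 2 called pump genes whose promoters were in the table, and capitals mark CACGTG. GENCODE starts can differ: 24 of the bases shown for Atp6v0c, 4 for Atp6v0b and 2 for Glb1 lie in GENCODE exons. The stretches lie at chr8:13159061-13159160 (plus strand) for Lamp1, chr4:117887330-117887429 (minus) for Atp6v0b, chr9:114400978-114401077 (plus) for Glb1, chr19:3907134-3907233 (minus) for Tcirg1 and chr17:24169679-24169778 (minus) for Atp6v0c.
Lamp1: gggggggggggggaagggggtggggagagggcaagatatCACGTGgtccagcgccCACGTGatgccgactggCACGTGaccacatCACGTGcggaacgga
Atp6v0b: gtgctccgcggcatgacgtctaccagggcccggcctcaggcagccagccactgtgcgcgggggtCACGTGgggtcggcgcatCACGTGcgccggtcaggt
Glb1: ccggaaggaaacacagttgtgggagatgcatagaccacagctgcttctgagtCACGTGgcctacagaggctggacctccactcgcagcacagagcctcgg
Tcirg1: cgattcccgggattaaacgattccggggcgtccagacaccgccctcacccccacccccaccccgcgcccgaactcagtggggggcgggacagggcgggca
Atp6v0c: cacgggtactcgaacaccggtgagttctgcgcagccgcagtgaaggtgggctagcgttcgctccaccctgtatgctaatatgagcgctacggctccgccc
Over all 11 members with the motif the median difference was 0.14 (log2), from -0.03 in Gla to 0.27 in Naglu, and over the 23 members in the table without it the median was 0.15.

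The factors that bind this element were measured at low to moderate levels. Tfeb stood at 4.41 ± 0.352 and 4.397 ± 0.422 FPKM, Mitf at 18.6 ± 0.952 and 18.1 ± 0.972 FPKM and Tfe3 at 25.3 ± 1.10 and 21.9 ± 1.44 FPKM in control and tachypaced libraries (SD, n = 3 each). None of these 3 passed the test (adjusted p = 0.973, 0.721 and 0.0908), although the Tfe3 values lay lower in all tachypaced libraries, and Tfec was listed at 0 throughout. Of 17 tested genes of these factors and of the docking of the kinase complex mTORC1 on the lysosome, 0 rose and 0 fell. This is near the 2.30% and 3.22% of all tested genes. At an unadjusted p below 0.05, 4 were higher and 2 lower, or 23.5% and 11.8%, against 10.8% and 19.4% of all tested genes.

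A wider set of 127 other lysosome genes, 115 of which could be tested, gave 5 calls, all higher, or 4.35% against 2.30% of all tested genes, with a median difference of 0.03 (log2). Of 29 tested membrane proteins and transporters, 4 rose, or 13.8%, and 0 fell, against 2.30% and 3.22% of all tested genes. Slc15a3, a peptide and histidine transporter of the endolysosome, rose from 3.93 ± 0.714 to 6.61 ± 0.639 FPKM, a log2 difference of 0.63 (SE 0.11, adjusted p = 0.0435). Gpnmb, a glycoprotein of phagocyte lysosomes, rose from 273 ± 53.01 to 396 ± 30.9 FPKM and Cd63, a tetraspanin of late endosomes, from 225 ± 37.9 to 313 ± 25.6 FPKM (SD, n = 3 each). Npc1, which exports cholesterol from the lysosome, rose from 18.1 ± 1.72 to 22.9 ± 1.41 FPKM (SD, n = 3 each, adjusted p = 0.0484).

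Of 33 other hydrolase and cofactor genes, 1 rose, or 3.03%, near the 2.30% of all tested genes called higher, and 0 fell, against 3.22%. The gene was Naaa, an amidase of lipid mediators, at 13.5 ± 0.393 FPKM in control and 16.0 ± 0.180 FPKM under tachypacing (SD, n = 3 each, adjusted p = 0.0498). Of 12 tested genes of other pump isoforms and assembly factors, 0 passed, near the 2.30% higher and 3.22% lower of all tested genes. Their median was -0.08 (log2). At an unadjusted p below 0.05, 0 were higher and 3 lower, the latter 25.0%, near the 19.4% of all tested genes. Of 24 genes of sorting and delivery to the lysosome, such as the mannose 6-phosphate receptors and the retromer, 0 passed, with a median of -0.003. This count too is near the 2.30% and 3.22% of all tested genes. At an unadjusted p below 0.05, 3 were higher and 6 lower, or 12.5% and 25.0%, near the 10.8% and 19.4% of all tested genes. All these counts are from the same limma fit. Without control replicate 1 the wider set had 35 higher and 12 lower of 115, or 30.4% and 10.4%, against 11.2% and 18.8% of all tested genes. It had 0 calls when any other library was left out, where all 10361 tested genes gave only 1 to 12 higher and 0 or 1 lower.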

How the data were processed

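The authors deposited FPKM values, with genes in rows and the 6 libraries in columns. Per the submitters' processing notes, reads were placed on GRCm38 (mm10). The aligner, quantifier, annotation and use of strand were not given in the sources used here. FPKM is relative to each library's total, so abundant genes that change shift the rest. Columns were matched through the sample descriptions. No libraries were identical, and low values showed no steps of whole reads (at most 3.45% of log2 ratios of values under 0.5 FPKM in a bin of 0.05).

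From these, log2(FPKM + 1) of genes whose library mean reached 1 FPKM was tested with limma 3.58.1 in R 4.3.3 (trend, two-sided, no covariates), Benjamini-Hochberg adjusted over 10361 genes, threshold 0.05. The steps were tested on simulated data. With 3 libraries a side, exact permutation cannot give a p below 0.1. Intervals are 95%. Python 3.11.15, pandas 2.3.3 and matplotlib 3.10.9 were used. The members and lists were chosen with earlier results of these data known. All members are named; other lysosome genes were named where called, with up to 4 per list and direction, or as transcription factors. Sequences are RefSeq's and gene positions GENCODE M21's. Alternatives were a pseudocount of 0.1, no filter, a minimum of 5 FPKM, 3 scalings, no trend, robust fitting, a replicate block and each library left out.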

Additional observations from a re-analysis of the deposited data

How the results depend on the processing

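Against 4 members higher and 0 lower, 0 were called without a filter on low values, with quantile normalization and without the trend, 2 with median of ratios scaling, and 8 with a minimum mean of 5 FPKM. Members called lower stayed at 0 under every alternative. Of the other lysosome genes, 5 were higher and 0 lower; 0 were higher without a filter, with quantile normalization and without the trend, 8 with a minimum mean of 5 FPKM, and 5 were lower after rescaling to a common total. Over all genes, 238 were higher and 334 lower. These counts became 0 and 0 without a filter, 13 and 4 with quantile normalization, and 2 and 0 without the trend, and the lower count became 183 with median of ratios scaling and 922 after rescaling to a common total. The cause of these changes was not tested. The number of genes tested was 15992 without a filter and 7483 with the stricter one.

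With the replicate number as a block, 8 members were higher, 2 of the other lysosome genes were lower, and 591 of all genes were lower. The numbers are shared by title only, and nothing in the labels says that they mark a shared day or batch, so they were not taken as pairs. The deviations of same-numbered libraries from their group means correlated at 0.06, -0.03 and 0.16 across genes. Those of libraries with other numbers correlated at -0.16 to 0.08. Deviations from a mean of 3 libraries are tied to each other, so these values cannot decide whether the libraries were paired.

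Leaving out each library in turn gave 0 to 24 members higher, 0 to 35 other lysosome genes higher and 0 to 12 lower, and 1 to 1162 of all genes higher and 0 to 1947 lower; the upper ends were without control replicate 1. Signs turned only in small differences. Gla became 0.0023 and Smpd1 0.0063 with median of ratios scaling. With quantile normalization Atp6v1a became -0.023, Atp6v1d 0.013, Gla 0.028 and Smpd1 0.028. After rescaling to a common total Gusb became -0.031 and Neu1 -0.027. With libraries left out, Smpd1 ran from -0.084 to 0.031, Atp6v1d from -0.071 to 0.035, Glb1 from -0.00051 to 0.11, Gusb from -0.034 to 0.051 and Neu1 from -0.024 to 0.038. Read depth is unknown, so no detection limit can be given for the genes listed at 0.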
